A study of Mus musculus with 12 samples.

Results

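Sphingosine 1-phosphate (S1P) receptors and the genes that hold germinal centre (GC) B cells in place were followed as a set of 10 genes through every group of the study. The genes were chosen by name for their known roles, with earlier results of these data known. They were the receptors S1pr1, S1pr2, S1pr3 and S1pr4, the signalling genes Gna13 and Arhgef1, the regulator Rgs13, the adaptor Gcsam, the ligand Efnb1 and the transcription factor Klf2. All 10 were found among the 27179 genes of the count table, and all 10 were among the 13131 genes that passed the filter on low counts. S1pr3 and Rgs13 had few reads in plasmablasts, where their lowest counts were 5 and 7 reads.

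S1P is a lipid that is abundant in blood and lymph and scarce inside lymphoid tissue, and lymphocytes read this gradient through G protein coupled receptors. S1pr1 signals through inhibitory G proteins and draws cells out towards blood and lymph. S1pr2 signals through the G protein subunit encoded by Gna13 and the RhoA exchange factor encoded by Arhgef1, restrains migration and Akt signalling, and keeps GC B cells clustered in the follicle centre. Plasmablasts, the antibody-secreting cells that B cells become, leave the follicle, and S1pr1 is needed for their passage into blood.

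The mice were C57BL/6 and had been immunised with NP-KLH, a hapten on a carrier protein, in alum. Myb encodes a transcription factor of blood cells, and Moz, whose gene symbol is Kat6a, is a histone acetyltransferase. In the Myb experiment the controls carried Myb fl/fl without cre and the animals labelled knockout carried Myb fl/fl with CD23-cre T/+, which acts in mature B cells. The cre and the loss of Myb therefore cannot be told apart there. GC B cells were sorted at day 12, and plasmablasts at day 5 after a boost with NP-KLH in PBS. In the Moz experiment the controls carried a cre allele (T/+) and the animals labelled knockout carried Moz fl/fl with the same cre allele, and GC B cells were sorted at day 7. Each of the 6 groups held 2 libraries, each from a pool of 2 to 8 mice, 57 mice in all. The labels tie pool 1 of a control and pool 1 of its knockout to the same experiment date or dates, and likewise pool 2.

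Depth ran from 8285934 to 24801297 counts per library. Immunoglobulin genes took 65.0% to 70.0% of the counts in plasmablasts and 1.59% to 9.16% in GC B cells, so levels are given as CPM, reads relative to the library total, after TMM scaling (scaled CPM), which sets the bulk of genes level between libraries. The marker genes went with the labelled cell types: Bcl6, the transcription factor that defines GC B cells, lay between 67.9 and 139 scaled CPM in the 8 GC libraries and between 0.753 and 2.21 in plasmablasts. Sdc1, the plasma cell surface marker, lay between 487 and 606 scaled CPM in plasmablasts and between 1.05 and 40.9 in GC libraries. Cd3e of T cells and Nkg7 of natural killer cells stayed at or below 1.33 and 0.638 scaled CPM, and the endothelial gene Cdh5 ran from 0.403 to 3.51. Some other markers stood higher. Pecam1, also endothelial, had group means from 25.1 to 55.0, and the 10 endothelial markers summed to 19.9 to 63.4 per library. The 8 markers of natural killer and plasmacytoid dendritic cells summed to 13.7 to 34.9 in GC libraries and 157 to 339 in plasmablasts. Among them, Bst2 had means of 238 and 245 in control and labelled knockout plasmablasts. The 12 markers of myeloid cells summed to between 7.33 and 39.9 scaled CPM in the GC libraries and between 30.7 and 89.3 in plasmablasts.

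The targeted genes did not check the knockout labels. Myb stood at 14.0 and 11.5 scaled CPM in control GC pools and at 13.0 and 11.6 in those labelled knockout, and at 4.13 and 4.64 against 3.11 and 3.10 in plasmablasts. Kat6a stood at 82.0 and 73.4 scaled CPM in Moz control pools and at 66.4 and 93.7 in those labelled knockout. A count over a whole gene can miss the deletion of a part of it, and the labels do not say which part was floxed. One library also went against its label in another way. Ddx3y, a Y-linked gene, reached 67.2 CPM of the library total in GC pool 1 labelled Myb knockout, which was described as 2 females. Ddx3y stood at 17.7 in control GC pool 1, and at or below 0.483 in the second pools of the control and of the group labelled knockout. The main values in Myb GC B cells are therefore also given without pool 1 labelled knockout.

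The first comparison asks how the genes differ between control GC B cells and control plasmablasts of the Myb experiment. Rgs13, Gcsam, Efnb1, S1pr3 and S1pr2 were lower in plasmablasts by 17.0-fold to 252-fold, Klf2, Gna13 and Arhgef1 by 2.30-fold to 3.61-fold, and S1pr4 by 1.56-fold. S1pr1 was the 1 gene of the 10 that did not pass the test. The count of 9 lower and 0 higher stands beside 28.1% of all tested genes called lower and 25% called higher. Since the 10 genes were chosen with earlier results of these data known, this count describes them and does not test the set. Stage, immunisation schedule, date and pool, and with it the mix of sexes, differ together between these groups and cannot be told apart. Y-linked Ddx3y stood at 17.7 and 0.483 CPM of the library total in these GC pools and at 43.1 and 12.2 in these plasmablast pools. In bulk RNA, fewer cells of a type and less RNA per cell cannot be told apart either. Of 9 tested myeloid markers, 4 were higher in control plasmablasts and 0 lower: Csf1r, at 3.66 scaled CPM in GC B cells and 23.8 in plasmablasts, C1qa, at 1.29 and 12.4, Adgre1, at 1.60 and 8.15, and C1qb, at 0.255 and 4.07. Their part in the values of the 10 genes was not tested.

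**Figure D1:**
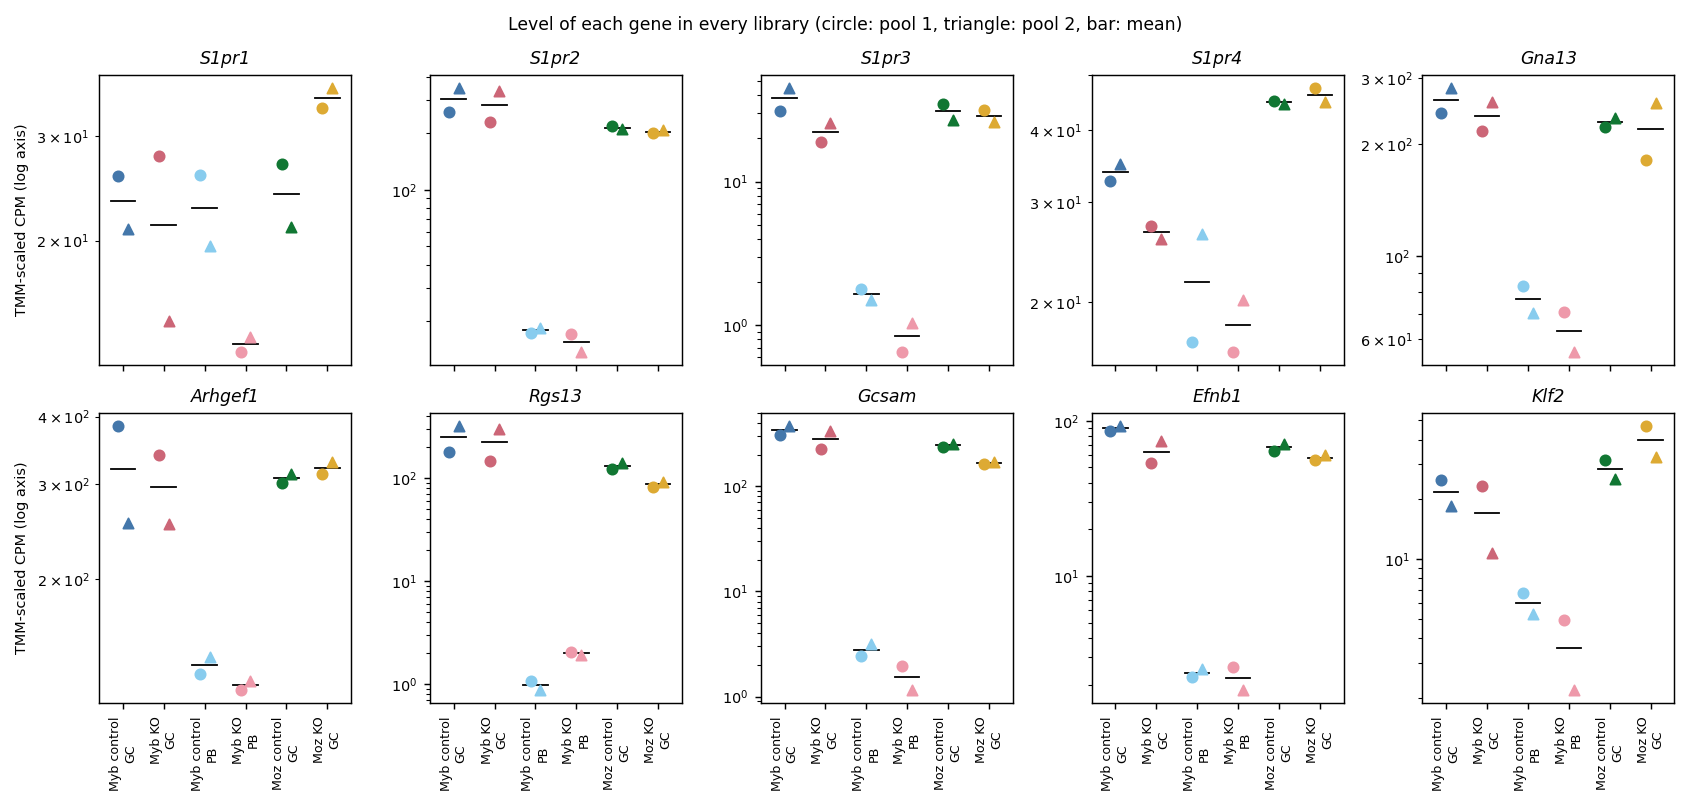
Level of each of the 10 genes in every library, as TMM-scaled CPM on a log axis, with a circle for pool 1, a triangle for pool 2 and a bar for the group mean. S1pr2 lies between 200 and 350 scaled CPM in all 8 GC libraries and between 13.7 and 18.4 in the 4 plasmablast (PB) libraries, while S1pr1 in control plasmablasts lies within the range of the GC libraries.

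Among the receptors, S1pr2 stood at 258 and 350 scaled CPM in the control GC pools and at 17.2 and 18.4 in the control plasmablast pools. The log2 difference was -4.09 (SE 0.27, adjusted p = 3.18e-07 by edgeR's quasi-likelihood test), and the groups lay far apart. S1pr3, a receptor that couples to several G proteins, stood at 31.0 and 45.1 scaled CPM in GC pools and at 1.80 and 1.51 in plasmablasts, from 20 and 12 reads. Its log2 difference was -4.51 (SE 0.32, adjusted p = 5.12e-07), of the same order as that of S1pr2. RefSeq places a long non-coding gene, Gm32834, over part of S1pr3, and no source used here says whether the counting used strand.

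S1pr4, a receptor of lymphoid and myeloid cells, stood at 32.6 and 35.0 scaled CPM in GC pools and at 17.1 and 26.4 in plasmablasts. Both plasmablast pools were below both GC pools, and the log2 difference was -0.64 (SE 0.22, adjusted p = 0.0259). That call was lost without GC pool 1 (adjusted p = 0.0543), without GC pool 2 (0.0971) and without plasmablast pool 1 (log2 difference -0.36, 0.237), as well as with immunoglobulin genes left out (0.0571) and with only the compared groups in the fit (0.0956).

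S1pr1 stood at 25.7 and 20.9 scaled CPM in control GC pools and at 25.8 and 19.6 in control plasmablast pools. The groups overlapped almost wholly, and the log2 difference was -0.04 (95% interval -0.66 to 0.59, adjusted p = 0.925). This value rests on the scaling. Set against library totals alone, which immunoglobulin transcripts fill, S1pr1 was lower in plasmablasts (log2 difference -1.91, adjusted p = 0.000344), as was the median gene, which moved from -0.17 to -2.04, and called genes went from 47.1% higher to 10.1% higher. Relative to the median gene, S1pr1 stood at 0.13 under both scalings, S1pr4 at -0.48 and -0.50, and S1pr2 at -3.92 under both.

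The ratio of S1pr1 to S1pr2 within a library does not depend on scaling. Per kilobase of gene length, the ratio was 0.0924 and 0.0555 in control GC pools and 1.39 and 0.986 in control plasmablast pools, so the receptor pair went from mostly S1pr2 to near parity. All 8 GC libraries lay between 0.0404 and 0.162, and all 4 plasmablast libraries between 0.704 and 1.39. Of the summed counts per kilobase over S1pr1 to S1pr5, S1pr2 held 77.8% ± 2.66 (SD, n = 2) in control GC B cells and 27.3% ± 0.52 in control plasmablasts. S1pr4 went from 10.3% ± 1.34 to 38.7% ± 9.21, S1pr1 from 5.72% ± 1.83 to 32.5% ± 8.39 and S1pr3 from 6.08% ± 0.52 to 1.59% ± 0.30. S1pr5, known from natural killer cells, had 0 to 33 reads per library. With 2 pools against 2, an exact two-sided permutation test of a ratio or share cannot go below p = 0.333.

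**Figure D2:**
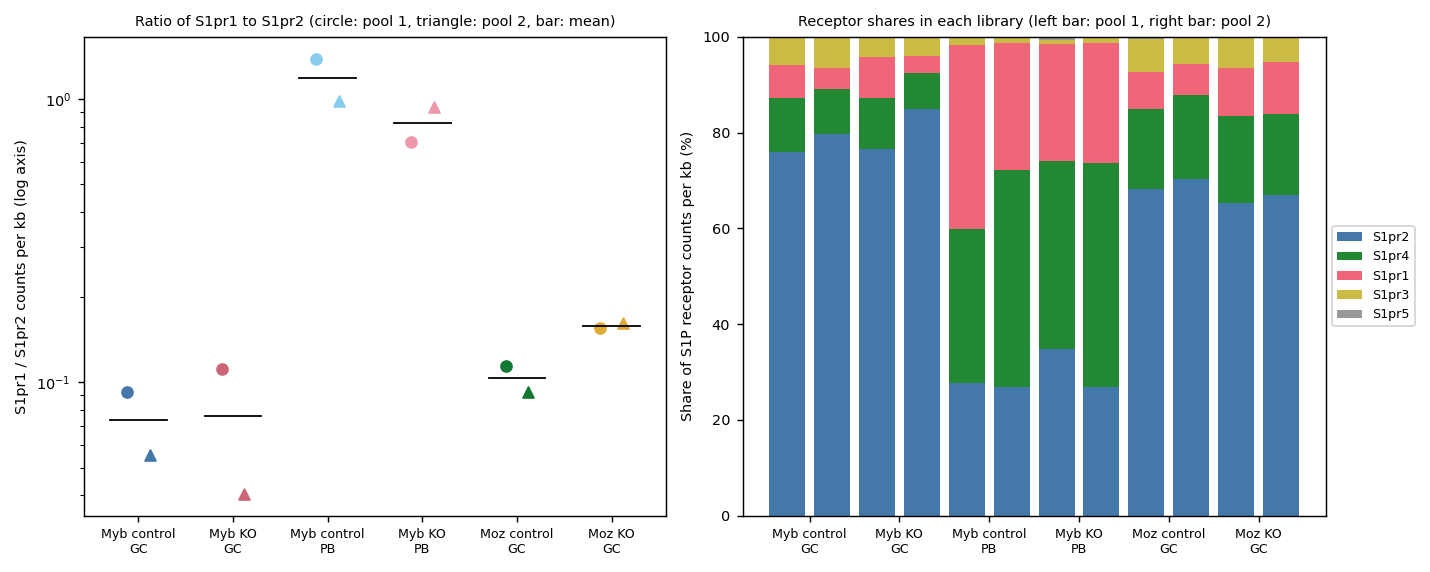
Left, the ratio of S1pr1 to S1pr2 counts per kilobase in each library on a log axis, with a circle for pool 1, a triangle for pool 2 and a bar for the group mean. Right, the share of each receptor in the summed S1P receptor counts per kilobase, in percent, 1 bar per library. The 4 plasmablast (PB) libraries sit between 0.704 and 1.39 in the ratio and the 8 GC libraries between 0.0404 and 0.162.

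Downstream of S1pr2, Gna13 stood at 242 and 283 scaled CPM in control GC pools and at 83.1 and 70.2 in control plasmablasts (log2 difference -1.78, SE 0.24, adjusted p = 6.86e-05). Arhgef1 stood at 385 and 254 scaled CPM in GC pools and at 134 and 143 in plasmablasts (log2 difference -1.20, SE 0.24, adjusted p = 0.00125). Neither gene's groups overlapped, and both kept a larger part of their GC level than S1pr2 did: 29.2% for Gna13 and 43.4% for Arhgef1 against 5.87%. A non-coding gene, Gm11696, overlaps Gna13 over 861 bases.

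Of the 10 genes, Rgs13 and Gcsam had the largest differences between stages. Rgs13, which shortens G protein signals downstream of chemokine receptors, stood at 179 and 323 scaled CPM in control GC pools and at 1.08 and 0.879 in control plasmablasts, from 12 and 7 reads. Its log2 difference was -7.97 (SE 0.49, adjusted p = 2.41e-07), and its plasmablast level was 0.390% of its GC level. Gcsam, a GC adaptor protein that limits motility and takes part in B cell receptor signalling, stood at 306 and 376 scaled CPM against 2.42 and 3.14 (log2 difference -6.95, SE 0.33, adjusted p = 8.05e-08), or 0.817% of its GC level. Among the GC and B cell markers, the transcription factor genes Mybl1 (0.944%) and Bcl6 (0.960%) had shares of this size, while Mef2b (8.44%), Ms4a1 (11.6%), Fas (25.8%), Nuggc (39.6%), Basp1 (47.8%) and Cd79a (85.8%) had larger ones.

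Efnb1, an ephrin through which GC B cells act on follicular helper T cells, stood at 86.1 and 92.8 scaled CPM in GC pools and at 2.25 and 2.51 in plasmablasts. The log2 difference was -5.24 (SE 0.26, adjusted p = 8.7e-08). Klf2, a transcription factor known to drive S1pr1 in lymphocytes, stood at 25.1 and 18.5 scaled CPM in GC pools and at 6.74 and 5.27 in plasmablasts (log2 difference -1.85, SE 0.41, adjusted p = 0.00274). Klf2 stood at 27.5% of its GC level and S1pr1 at 97.4%. The difference between these 2 genes was not tested.

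**Figure D3:**
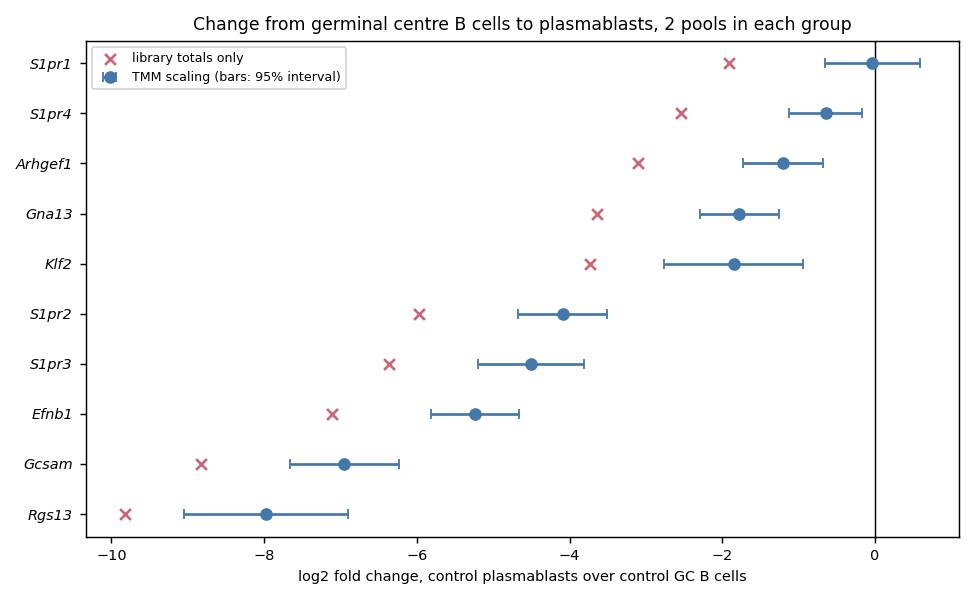
Log2 fold change of each gene from control GC B cells to control plasmablasts, with circles and 95% intervals for TMM scaling and crosses for library totals only. With TMM the estimates run from -7.97 for Rgs13 to -0.04 for S1pr1, whose interval includes 0, and with library totals only all 10 lie below 0.

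Ranked by scaled CPM per kilobase, control GC B cells of the Myb experiment had Rgs13 (168 ± 67.9), S1pr2 (108 ± 22.9), Gcsam (101 ± 14.7) and Arhgef1 (88.7 ± 25.7) at the top, and the pools of each neighbouring pair in this order overlapped. Gna13 (42.3 ± 4.64) and Efnb1 (27.4 ± 1.46) followed without overlap. S1pr4 (14.1 ± 0.70) and Klf2 (12.0 ± 2.60) overlapped, as did the lowest pair, S1pr3 (8.48 ± 2.22) and S1pr1 (7.69 ± 1.13). In control plasmablasts Arhgef1 led (38.5 ± 1.93), then Gna13 (12.4 ± 1.47). S1pr4 (9.07 ± 2.75), S1pr1 (7.49 ± 1.45) and S1pr2 (6.34 ± 0.30) came next, and neighbours among them overlapped. Klf2 (3.31 ± 0.57) stood apart, and Gcsam, Efnb1, Rgs13 and S1pr3 lay below 1 scaled CPM per kilobase.

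The promoters of S1pr2, Gcsam and Rgs13 are shown because these genes are abundant in GC B cells and scarce in plasmablasts, and because the study removed a DNA-binding factor, Myb. RefSeq (GRCm38.p6) gave a window of 300 bases, 250 before to 50 after the start, for 9 of the 10 genes, all but S1pr1. Capitals mark the Myb core AACNG, searched on both strands.
S1pr2 (chr9:20976744-20977043, minus strand): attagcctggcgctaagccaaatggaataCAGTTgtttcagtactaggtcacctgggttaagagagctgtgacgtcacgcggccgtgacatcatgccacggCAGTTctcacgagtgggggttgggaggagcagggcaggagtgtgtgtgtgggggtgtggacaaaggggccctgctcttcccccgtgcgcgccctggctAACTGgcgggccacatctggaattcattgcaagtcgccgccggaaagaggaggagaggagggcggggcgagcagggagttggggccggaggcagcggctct
Gcsam (chr16:45610190-45610489, plus strand): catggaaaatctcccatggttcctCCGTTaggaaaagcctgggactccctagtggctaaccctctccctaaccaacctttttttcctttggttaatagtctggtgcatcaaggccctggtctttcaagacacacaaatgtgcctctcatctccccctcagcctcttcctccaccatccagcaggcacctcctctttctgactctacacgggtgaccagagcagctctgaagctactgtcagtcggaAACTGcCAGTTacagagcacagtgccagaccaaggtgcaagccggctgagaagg
Rgs13 (chr1:144177323-144177622, minus strand): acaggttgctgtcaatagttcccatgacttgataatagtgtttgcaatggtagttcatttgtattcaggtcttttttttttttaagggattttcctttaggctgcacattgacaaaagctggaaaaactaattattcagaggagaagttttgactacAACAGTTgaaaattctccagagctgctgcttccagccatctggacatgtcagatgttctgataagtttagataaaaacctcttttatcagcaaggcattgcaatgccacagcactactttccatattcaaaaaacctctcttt
S1pr2 and Gcsam had 3 matches each, and Rgs13 had 2, which overlap each other within the single stretch in capitals. At least 1 match is found in 80.3% of all 32851 promoter windows of this length, and 2 or more in 51.3%. The letters GAAAGT, the core bound by the plasma cell repressor encoded by Prdm1, were found in the Rgs13 window once and in no other window of the 9 genes, against 14.3% of all windows. The KLF core CACCC was found in at least 1 window of every one of the 9 genes but Rgs13, against 57.5% of all windows. Arhgef1 had 2 windows, and window 2 held no match to the KLF core. A match describes the letters and not binding.

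The second comparison asks whether the genes differ between Myb control GC B cells and those labelled knockout. None of the 10 passed edgeR's quasi-likelihood test, beside 0.259% of all tested genes called. Of the 10, 2 had an unadjusted p below 0.05, as had 755 of all 13131, and DESeq2 called 0. All 10 estimates lay below 0, with a median log2 difference of -0.22 against 0 for all genes. The 10 markers of GC B cells had the same median, -0.22, with 8 below 0, and the 12 plasmablast markers had a median of 0.60, with 10 above 0. S1pr3 was the furthest: 31.0 and 45.1 scaled CPM in control pools and 19.0 and 25.5 in those labelled knockout, so that the groups did not overlap. Its log2 difference was -0.78 (SE 0.25, adjusted p = 0.378). With the replicate number, and so the date, as a block, S1pr3 passed (log2 difference -0.77, SE 0.13, adjusted p = 0.0117), beside 2.42% of genes called either way and 0.396% called lower in that fit. Without pool 1 labelled knockout, whose Ddx3y went against its label, the difference was -0.58 without the block and -0.82 with it. With the block that value compares pool 2 of each genotype alone, so the fit cannot decide whether the S1pr3 call holds.

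Efnb1, which lies on the X chromosome, stood at 86.1 and 92.8 scaled CPM in control GC pools and at 53.0 and 73.6 in those labelled Myb knockout. The groups did not overlap, but the difference did not pass (log2 difference -0.50, SE 0.20, adjusted p = 0.686), and without the pool in doubt it was -0.28. S1pr4 stood at 32.6 and 35.0 scaled CPM against 27.2 and 25.8, again without overlap (log2 difference -0.35, SE 0.21, adjusted p = 1), and the difference was -0.39 without the pool in doubt. For S1pr2 the values were 258 and 350 against 231 and 337, which overlap, and the 95% interval of the log2 difference, -0.61 to 0.41, leaves room for a change of moderate size in either direction. Without the pool in doubt the estimate for S1pr2 was 0.15.

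The 2 pools of a genotype differed too, for several genes in the same direction in both genotypes. Date, animals and Ddx3y differ together between pools 1 and 2 and cannot be told apart. In control and labelled knockout, Ddx3y stood at 17.7 and 67.2 CPM of the library total in pools 1 and at 0.483 and 0.323 in pools 2. Pool 1 labelled knockout is the pool in doubt. Pool 2 over pool 1 gave ratios of 1.80 in control and 2.03 in labelled knockout GC B cells for Rgs13, 1.35 and 1.46 for S1pr2, and 1.45 and 1.34 for S1pr3. The ratios were below 1 for Arhgef1 (0.660 and 0.746), S1pr1 (0.812 and 0.528) and Klf2 (0.734 and 0.455). Rgs13 and S1pr2 were thus higher, and S1pr1 and Klf2 lower, in pool 2 of both genotypes. Summed markers of naive follicular B cells, cells known for high Klf2 and S1pr1, were 483 and 462 scaled CPM in control pools and 419 and 290 in those labelled knockout, lowest in the pool that also had the least Klf2 (10.7) and S1pr1 (14.7) of the Myb GC pools. The lower sums came from Fcer2a, at 210 and 215 against 147 and 97.6 scaled CPM, and Il4ra, at 179 and 175 against 140 and 131. Of the 7 markers, 5 had estimates above 0, and the median log2 difference was 0.06. In Moz GC B cells the sums were 551 and 483 in controls and 550 and 575 in those labelled knockout. The part of such cells in these values was not tested. Summed plasmablast markers were 1537 and 2349 scaled CPM in control pools and 1949 and 2762 in those labelled knockout. Of the 12, 1 was higher without the block and 6 with it, and none was lower, beside 31 and 266 of all 13131 tested genes higher. These counts include the pool in doubt. Prdm1, the gene of the plasma cell repressor and the 1 called without the block, stood at 3.21 and 4.03 scaled CPM in control pools and 21.8 and 14.9 in those labelled knockout, while Slamf7 and Tnfrsf17 had estimates below 0 (-0.24 and -0.67). The part of these genes or cells in the S1pr3 values was not tested.

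The third comparison set plasmablasts labelled Myb knockout against their controls. Again none of the 10 passed in edgeR, beside 0.0381% of all tested genes. Of the 10, 2 had an unadjusted p below 0.05, as had 496 of all 13131, and DESeq2 called 0. S1pr1 stood at 25.8 and 19.6 scaled CPM in control pools and at 13.0 and 13.8 in those labelled knockout, and the groups did not overlap. The log2 difference was -0.76 (95% interval -1.41 to -0.12, unadjusted), and the adjusted p was 1. Klf2 stood at 6.74 and 5.27 scaled CPM against 4.93 and 2.18 (log2 difference -0.78, SE 0.47, adjusted p = 1), without overlap. With 1 pool left out the estimate for Klf2 ran from -1.47, without pool 1 labelled knockout, to -0.29, without pool 2 labelled knockout.

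Gcsam stood at 2.42 and 3.14 scaled CPM in control plasmablasts and at 1.95 and 1.15 in those labelled Myb knockout, while Rgs13 went the other way, from 1.08 and 0.879 to 2.08 and 1.95. These rest on few reads, 12 and 7 against 16 and 17 for Rgs13. The log2 differences were -0.84 (SE 0.37) and 1.02 (SE 0.56), and neither passed (adjusted p = 1 for both). S1pr3, from 20 and 12 reads against 5 and 9, had a log2 difference of -0.97 (SE 0.45, adjusted p = 1).

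Whether the difference between Myb genotypes itself differed between plasmablasts and GC B cells was tested as an interaction. None of the 10 genes passed in edgeR, beside 0.00762% of all tested genes, 0 had an unadjusted p below 0.05, against 489 of all 13131, and DESeq2 called 0. The estimates furthest from 0 were those of Rgs13 (1.19, SE 0.65) and S1pr1 (-0.63, SE 0.41), both with an adjusted p of 1. Without the pool in doubt these were 0.77 and -0.10. For S1pr2, the plasmablast level was 5.87% of the GC level in controls and 5.42% in the groups labelled knockout, with an interaction of -0.11 (95% interval -0.86 to 0.63).

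The fourth comparison set Moz control GC B cells against those labelled knockout at day 7. None of the 10 genes passed, beside 0% of all tested genes by edgeR's quasi-likelihood test. Over all genes 315 had an unadjusted p below 0.05, and DESeq2 called 11. Of the 10, 1 had an unadjusted p below 0.05, and DESeq2 called 0 and gave no adjusted p for 5. S1pr1 stood at 26.9 and 21.1 scaled CPM in controls and at 33.4 and 36.1 in those labelled knockout, and the groups did not overlap (log2 difference 0.54, SE 0.27, adjusted p = 1). Klf2 stood at 31.5 and 25.3 against 47.0 and 32.5, also without overlap (0.49, SE 0.37, adjusted p = 1). The ratio of S1pr1 to S1pr2 per kilobase was 0.115 and 0.0926 in controls and 0.155 and 0.162 in those labelled knockout, and S1pr1 made up 7.17% ± 0.93 and 10.5% ± 0.49 of receptor counts (SD, n = 2).

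Rgs13 and Gcsam lay lower in both pools labelled Moz knockout. Rgs13 stood at 122 and 140 scaled CPM in controls and at 82.0 and 92.3 in the others (log2 difference -0.58, SE 0.33, adjusted p = 1). With the replicate block its adjusted p was 0.0519. Gcsam stood at 236 and 252 scaled CPM against 163 and 171 (-0.55, SE 0.24, adjusted p = 1). Efnb1 stood at 63.8 and 71.1 against 55.7 and 60.2, without overlap. S1pr2 stood at 218 and 211 against 200 and 208, with a log2 difference of -0.08 (95% interval -0.58 to 0.43). Summed plasmablast markers were 5712 and 6526 scaled CPM in Moz controls and 7223 and 9075 in those labelled knockout, and their part in these values was not tested.

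**Figure D4:**
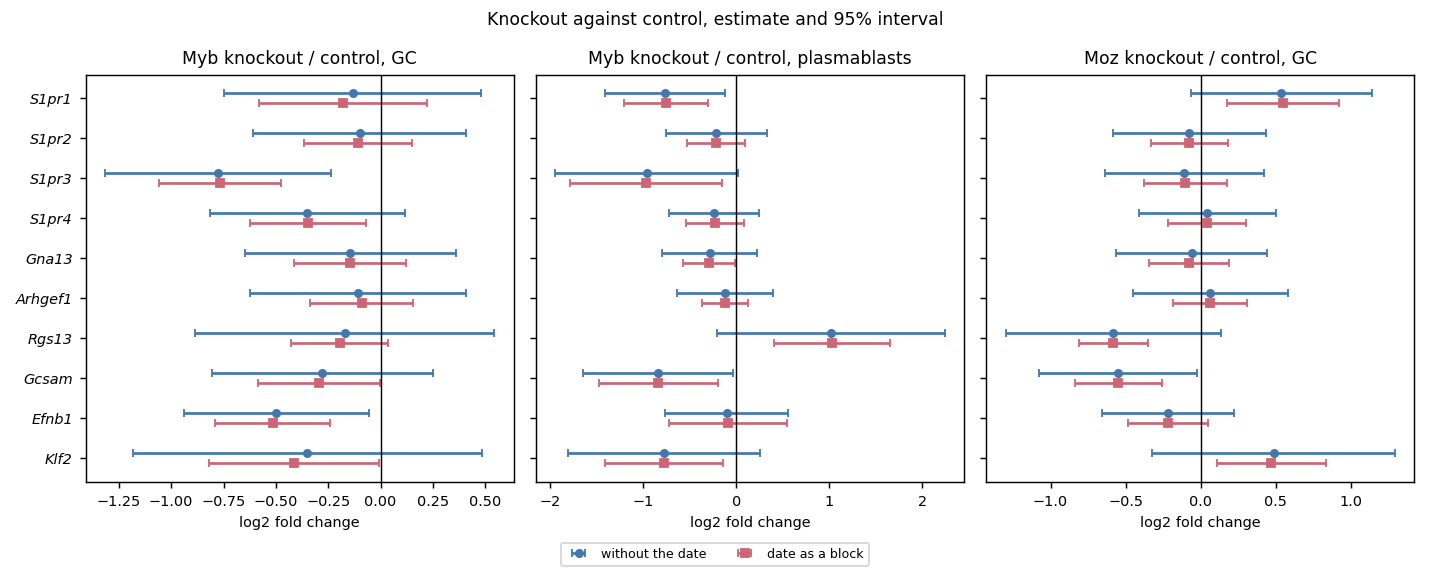
Log2 fold change of each gene in libraries labelled knockout over control, in Myb GC B cells, Myb plasmablasts and Moz GC B cells, with 95% intervals. Circles are the fit without the date and squares the fit with the date as a block. S1pr3 in Myb GC B cells, at -0.77, is the 1 gene that passed after adjustment over all genes, and only with the block. That fit includes pool 1 labelled knockout, whose Ddx3y went against its label.

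The last comparison set control GC B cells of the Moz experiment (day 7) against those of the Myb experiment (day 12). Day, genotype, date and the mix of sexes in the pools differ together and cannot be told apart. Y-linked Ddx3y stood at 108 and 82.1 CPM of the library total at day 7 and at 17.7 and 0.483 at day 12. None of the 10 passed in edgeR, beside 1.38% of all tested genes. Of the 10, 1 had an unadjusted p below 0.05, as had 1021 of all 13131, and DESeq2 called 0. Rgs13 stood at 122 and 140 scaled CPM at day 7 and at 179 and 323 at day 12 (log2 difference -0.94, SE 0.33, adjusted p = 0.341). S1pr2 stood at 218 and 211 against 258 and 350 (-0.50, SE 0.23, adjusted p = 0.652). With the replicate block both passed as lower at day 7, Rgs13 at -0.88 (adjusted p = 0.000355) and S1pr2 at -0.49 (adjusted p = 0.0346), beside 5.48% of genes called in that fit and 1.42% called lower. These groups share no date, so the spread between dates is not in the error of the blocked fit. Summed plasmablast markers were 5712 and 6526 scaled CPM at day 7 against 1537 and 2349 at day 12. All 12 had estimates above 0 (median 1.92), with 7 higher without the block and 11 with it, and of the 10 GC markers 2 were lower with the block. The part of these cells in the Rgs13 and S1pr2 values was not tested. S1pr4 stood at 45.1 and 44.4 scaled CPM at day 7 and 32.6 and 35.0 at day 12, without overlap (0.41, SE 0.21, adjusted p = 0.77).

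Around the 10 genes, the enzymes and carriers that make, break down and move S1P and its ceramide precursors were counted. Of 19 tested, 7 were higher and 1 was lower in control plasmablasts than in control GC B cells, with a median log2 difference of 0.37 against -0.17 for all genes. Here and in the lists that follow, counts of higher and lower genes stand beside 25% of all tested genes higher and 28.1% lower. The lists too were chosen with earlier results of these data known, so these counts only describe them. The S1P phosphatase gene Sgpp2 had a log2 difference of 2.65, the ceramide synthase genes Cers6 and Cers2 had 2.39 and 2.00, and the ceramidase genes Asah1, Acer3 and Asah2 had 1.58, 1.45 and 1.16. Sptlc1, for the first step of sphingolipid synthesis, had 0.82. Plpp1, a lipid phosphatase of the cell surface, was lower (-1.71).

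Of 12 tested receptors for other lysolipids and related ligands, 6 were higher and 2 lower in control plasmablasts (median 0.78). Gpr55, a receptor for lysophosphatidylinositol, stood at 2.65 and 3.06 scaled CPM in GC pools and at 199 and 136 in plasmablasts (log2 difference 5.87, adjusted p = 5.59e-07). Lpar6 (2.37), Lpar5 (2.14), Gpr132 (2.13) and P2ry10 (0.65) were also higher. Lpar4 had 0 reads in both GC pools and 22 and 9 in plasmablasts. Gpr34 (-3.19) and Lpar2 (-1.77) were lower. Gpr34 averaged 0.188 scaled CPM in control plasmablasts. Lpar4 passed the filter on low counts through plasmablast libraries and Gpr34 through GC libraries. The calls of Lpar4 and Gpr34 therefore only describe where they were read.

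Of 30 tested genes for G proteins, small GTPases and their regulators and effectors, 5 were higher and 11 lower (median -0.43). Rhob, a small GTPase of endosomes, was the furthest, at 6.15 and 4.43 scaled CPM in GC pools and 254 and 173 in plasmablasts (log2 difference 5.33). Gnaq (1.58), Arhgef11 (1.38), Arhgef12 (0.87) and Pik3r1 (0.87) were higher. Arhgef11 and Arhgef12 encode exchange factors of the same family as Arhgef1. The lowest were Rhoh (-2.09), Rac2 (-1.99), Akt1 (-1.74), Gna12 (-1.73), Arhgdib (-1.47) and Arhgap25 (-1.37), of which Gna12 encodes the closest relative of the Gna13 product.

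Of 18 tested genes for other RGS proteins, receptor kinases and arrestins, which end receptor signals, 4 were higher and 9 lower (median -0.99). Rgs18 (-5.10), from 1 read in each plasmablast pool, Rgs9 (-4.94) and Rgs2 (-4.69) fell with Rgs13, as did Grk6 (-1.79) and Arrb2 (-1.53). Rgs4 had 13 and 8 reads in GC pools and 0 in plasmablasts. Rgs9 averaged 0.727 scaled CPM in control plasmablasts. Rgs18, Rgs4 and Rgs9 passed the filter on low counts through GC libraries, so their calls only describe where they were read. Grk4 (3.50), Arrb1 (2.41), Rgs3 (2.18) and Grk5 (1.96) were higher, so the kinases and arrestins moved in both directions.

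Of 12 tested ephrin, Eph, plexin and semaphorin genes beside Efnb1, 2 were higher, Plxnd1 (2.96) and Sema4b (1.66), and 5 were lower (median -0.95). The lower ones were Sema4a (-4.55), Plxnb2 (-3.21), Sema7a (-2.39), Sema4d (-1.69) and Epha2. Sema4a averaged 0.0449 scaled CPM in control plasmablasts. It passed the filter on low counts through GC libraries, so its call only describes where it was read. The call of Epha2 carries no weight, since it had 6 reads and 1 read in these GC pools and 0 in plasmablasts and passed the filter on low counts through the Moz GC libraries, with 22 to 40 reads. Of 11 tested genes that work with Gcsam and B cell receptor signalling, 8 were lower and 0 higher (median -1.86). Cd22 (-6.48), Il21r (-4.88), Lmo2 (-2.12), Lyn (-2.01), Ptpn6 (-1.98) and Grb2 (-1.86) were the lowest.

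Of 19 tested genes for homing and exit that are known to go with Klf2, 4 were higher and 5 lower (median 0.46). The follicle-homing receptor gene Cxcr5 (-6.33) fell, as did the chemokine receptor genes Ccr7 (-5.24) and Ccr6 (-3.30), Foxo1 (-0.79), which acts upstream of Klf2, and Mapk7 (-0.61). Higher were Foxo3 (3.12), the integrin genes Itga4 (2.80) and Itgb7 (2.24) and Klf3 (1.63). Ccr7 and Ccr6 averaged 0.215 and 1.06 scaled CPM in control plasmablasts. Both passed the filter on low counts through GC libraries, so their calls only describe where they were read.

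With the replicate block more of these genes passed between stages, beside 31.3% of all tested genes higher and 36.5% lower in that fit. The block was set within each cell type and so does not pair GC B cells with plasmablasts. The spread between dates is not in the error of that fit, which has 3 residual degrees of freedom. The genes of S1P and ceramide metabolism had 10 higher and 1 lower, the receptors for other lysolipids 7 and 3, and the G protein and GTPase genes 7 and 18. The other RGS, kinase and arrestin genes had 7 and 9, the ephrin, plexin and semaphorin genes 3 and 5, and the homing and exit genes 10 and 6. The Gcsam and B cell receptor genes had 0 and 8.

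Among these lists, 1 gene passed in a knockout comparison without the block. Itgb7, an integrin subunit for homing to gut, stood at 111 and 132 scaled CPM in control plasmablasts and at 19.3 and 27.1 in those labelled Myb knockout (log2 difference -2.39, SE 0.30, adjusted p = 0.0167). Itgb7 no longer passed when immunoglobulin genes were left out (adjusted p = 0.0612), with only the compared groups in the fit (0.302) and with any 1 of the 4 pools left out (0.0699 to 0.243), while the estimate stayed between -2.65 and -2.16. In GC B cells it stood at 29.4 and 21.9 against 30.8 and 16.8, and the interaction passed with the block (-2.26, adjusted p = 0.000505), beside 0.541% of all genes in that fit. Without the GC pool in doubt the interaction with the block was -2.02, with pool 2 of each genotype alone left to compare in GC B cells. With the block Itgb7 was also higher in Moz GC B cells labelled knockout (0.90, adjusted p = 0.0169), beside 0.297% of all genes.

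With the block, 4 list genes were higher in GC B cells labelled Myb knockout: Ephb2 (2.36), a receptor for ephrins such as that of Efnb1, Rgs3 (2.19), Cers6 (1.53) and Rhob (0.79), beside 2.03% of all genes higher in that fit. Each was the 1 gene called higher in its list, of 12, 18, 19 and 30 tested. Of the 12 receptors for other lysolipids, 19 homing and exit genes and 11 Gcsam and B cell receptor genes, 0 were called. Without the pool in doubt the estimates of these 4 were 2.30, 2.13, 1.55 and 0.90. Those values compare pool 2 of each genotype alone, so the fit cannot decide whether the calls hold. These estimates share the control GC pools with the comparison between stages. At day 7 against day 12, Rgs9 was lower without the block (-1.64, adjusted p = 0.0176). With the block, Rgs18 (1.24), Gpr55 (1.44), Rhob (1.28), Arhgef18 (0.79) and Rock1 (0.52) were higher and Rgs10 (-0.57), Gna12 (-0.70), Abcc1 (-0.54) and Plxnb2 (-0.56) lower. In that fit 3 of 30 G protein and GTPase genes were higher and 1 lower, and 1 of 18 other RGS, kinase and arrestin genes higher and 2 lower. Of 12 lysolipid receptors 1 was higher. Of 19 S1P and ceramide genes and of 12 ephrin, plexin and semaphorin genes, 1 each was lower. Of 19 homing and exit genes and 11 Gcsam and B cell receptor genes, 0 were called. Of all 13131 tested genes, 533 were higher and 186 lower between days with the block, and 1.38% were called without it. The day 7 and day 12 groups share no date, so the spread between dates is not in the error of the blocked fit.

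Likeness of pattern was described by Pearson's r of log2 scaled CPM over the 12 libraries, which share 2 cell types, so that any gene with a large stage difference scores high. The 5 genes nearest to S1pr2 were Gcsam (0.9975), Ppp4r2 (0.9966), Mtmr14 (0.9966), Lpxn (0.9964) and Rbm38 (0.9964). Within the 8 GC libraries alone, Gcsam had 0.886 and Ppp4r2 had 0.789. Nearest to Klf2 were Colq (0.9805), Rassf2 (0.9735), Patz1 (0.9703), Ptprs (0.9696) and Il10ra (0.9687). S1pr1, with little difference between stages, had lower values, led by Lamb3 (0.9248), Aff3 (0.9069), Prex1 (0.8968), Gucd1 (0.8964) and Rasal3 (0.8834).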

How the data were processed

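PolyA RNA of sorted cells was sequenced in 12 libraries. The authors deposited whole-number read counts per gene. The submitters' processing notes name featureCounts and mm10. Aligner, versions and strand setting were not stated in any source used. Every count column was mapped to a sample by its name (0 columns unmapped), and the single-library files matched the table. The 10 genes and all lists were chosen with earlier results of these data known.

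Counts were analysed in R 4.3.3 with edgeR 4.0.16: filterByExpr (minimum count 10, minimum total 15), TMM scaling, and a robust quasi-likelihood F test in one fit of 6 group means, two-sided, with 6 residual degrees of freedom. P-values were adjusted by Benjamini-Hochberg over all 13131 tested genes, limit 0.05. Genes were matched by gene ID, and 25275 of 27179 IDs had a symbol. Lengths come from the count table, and chromosome positions from RefSeq for GRCm38, the assembly named mm10. DESeq2 1.42.0 was an alternative. Others were a replicate block, RLE scaling, no low-count filter, immunoglobulin genes left out, only the compared groups, each pool left out and, added after the data were seen, library totals only and, for 6 genes, the block without a GC pool that went against its label. Replicate numbers pair control and knockout pools because the labels give them the same dates; deviations of same-numbered pools correlated at 0.702 (Myb GC), 0.605 (Myb plasmablasts) and 0.331 (Moz GC). P-values rest on the spread between the 2 pools within a group, taken over all 6 groups in the fit and drawn towards the trend over all genes. Depth was 8285934 to 24801297 counts per library.

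On counts simulated for the Myb GC comparison over 13131 genes, the test recovered 95 of 100 genes changed 4-fold and 23 of 100 changed 2-fold, with 11 false calls. The changed genes were drawn from those with higher mean counts in GC libraries, and no difference between dates was simulated. The recovered shares therefore do not speak for genes with few reads or for pools that differ by date. From the lists, every called gene is named where at most 6 were called in a direction, otherwise the 6 with the largest change.

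Some items are not reported here.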

Additional observations from a re-analysis of the deposited data

How the results depend on the processing

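Calls over all genes depended on the fit. Without a block they numbered 34 (Myb GC), 5 (Myb plasmablasts), 0 (Moz GC), 1 (interaction), 181 (day 7 against day 12) and 6984 (plasmablasts against GC). With the replicate block they were 318, 76, 39, 71, 719 and 8901, and with no low-count filter 320, 104, 55, 136, 501 and 7480. DESeq2 gave 161, 50, 11, 45, 358 and 6939. With immunoglobulin genes left out, Myb plasmablasts had 0 and day 7 against day 12 had 104, and with only the compared groups Myb GC, Myb plasmablasts and the interaction had 0. Library totals only gave 10985 between stages. Leaving out 1 pool at a time gave 0 to 38, 0 to 2, 0 to 3, 0 to 3, 16 to 91 and 5577 to 6120. The cause was not tested.

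Of the 9 genes lower in plasmablasts, 8 kept their call under every alternative run, S1pr4 being the exception given above. S1pr1 between stages turned to 0.05 (RLE scaling 0.0484, DESeq2 0.0479, compared groups only 0.0478) and 0.0762 (immunoglobulin genes left out), and ran from -0.251 to 0.145 with 1 pool left out. The block changed 3 calls among the 10 genes, those of S1pr3 in Myb GC and of S1pr2 and Rgs13 between days, and no other; Rgs13 between days also passed with no low-count filter (adjusted p = 0.0169). In the interaction, Arhgef1 turned to 0.000899 with no low-count filter and S1pr4 to -0.0527 with library totals only, where the median gene moved from -0.01 to -0.18.

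The estimates below, which crossed 0 with 1 pool left out, passed in none of the fits run. In Myb GC they ran from -0.669 to 0.253 (S1pr1), -0.399 to 0.148 (S1pr2), -0.375 to 0.224 (Arhgef1), -0.767 to 0.316 (Rgs13) and -1.03 to 0.105 (Klf2). In Myb plasmablasts they ran from -0.527 to 0.100 (S1pr4) and -0.364 to 0.134 (Efnb1), and in Moz GC from -0.281 to 0.0856 (S1pr3) and -0.305 to 0.169 (Gna13). In the interaction they ran from -0.362 to 0.185 (S1pr2), -0.576 to 0.0892 (S1pr3), -0.178 to 0.449 (S1pr4), -0.330 to 0.0252 (Gna13), -0.348 to 0.251 (Arhgef1) and -1.12 to 0.249 (Klf2). Between days they ran from -0.146 to 0.204 (S1pr1) and -0.324 to 0.275 (Arhgef1). Where 1 pool was left, it was assumed to vary like the other groups. Depth limits S1pr3 and Rgs13 in plasmablasts.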
